A study of Arvicanthis niloticus with 28 samples.

Results

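The retinal vessels of 5 hyperglycemic Nile rats were compared with those of 20 normoglycemic Nile rats. Rats with a labelled random blood glucose of at least 200 mg/dL formed the hyperglycemic group, and rats below 100 mg/dL the normoglycemic group, which together are 25 of the 28 rats of the series. The other 3 rats, at 117, 127 and 147 mg/dL, are called intermediate and entered no group comparison other than the one stated for them. The Nile rat (Arvicanthis niloticus) is a rodent that becomes diabetic on a calorie-rich diet without drugs or induced mutations. Every rat of both groups was wild type and labelled as having no treatment. The labels give sex, blood glucose and the density of acellular capillaries, and they give neither diet, age nor duration of diabetes for a rat. RNA came from the whole retinal vasculature of a single rat, freed from the retina by osmotic lysis, DNase and a jet of water, with 1 library per rat.

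Capillaries of the retina are tubes of endothelial cells held by pericytes and by a shared basement membrane. Endothelial cells seal the blood-retina barrier with tight junctions and carry glucose, lactate and ketone bodies across it through transporters. Loss of pericytes, a thicker basement membrane and capillaries left without cells are the known early lesions of diabetic retinopathy. In cultured cells, high glucose is known to raise Txnip, to load the polyol and hexosamine pathways and to activate protein kinase C.

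In order of rising glucose, the 5 hyperglycemic rats were T370M (226 mg/dL), T391M (278), T392F (361.5), T446M (422) and T389M (443), where the last letter gives the sex. Values of single rats are given in this order below. Their acellular capillary densities were 12.6, 17.6, 11.8, 11.4 and 17.9 per square millimeter, so that T391M and T389M lay in the range of 17 to 18 that the study calls pre-dropout. Normoglycemic rats ranged from 6.03 to 17.1 with a median of 8.92, and 1 of them, T353M, was pre-dropout. Mean density was 14.2 ± 3.20 (SD, n = 5) against 9.56 ± 2.95 (SD, n = 20), a difference larger than the spread between rats (exact permutation test over 53130 splits, two-sided p = 0.00514, adjusted over 3 library values p = 0.0154). Males made up 4 of 5 hyperglycemic and 6 of 20 normoglycemic rats (Fisher's exact test, two-sided p = 0.121), and sex was therefore a covariate. Total counts ranged from 1527354 to 4719175 in the hyperglycemic and from 153111 to 10029207 in the normoglycemic libraries, 2 of which were under 1000000 counts. Neither total counts (exact permutation p = 0.265) nor genes detected (exact permutation p = 0.67) differed between the groups by more than the spread between rats. Genes detected were 11485 to 13757 in the 4 hyperglycemic males but 7502 to 11223 in the 6 normoglycemic males, a gap in the direction of the genes with higher levels below. With total counts and genes detected as further covariates, genes at an unadjusted p under 0.05 were 469 higher and 237 lower, against 750 and 143 without them.

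No gene passed the test for a difference between hyperglycemic and normoglycemic rats. A call needed both an adjusted p under 0.05 and a difference of over 2-fold. By edgeR's quasi-likelihood test 0 (0%) of 13436 tested genes were called, and the smallest adjusted p was 0.565. At an unadjusted p under 0.05, 750 genes (5.58%) had higher and 143 (1.06%) lower levels in the hyperglycemic rats. Without sex in the model these counts were 21 and 150. DESeq2 called 95 genes, 89 higher and 6 lower, and limma on log2(TPM + 1) called 0. Of those 89, 73 had a count in at most 1 of the 6 normoglycemic males, and all 6 that were lower had no count in any hyperglycemic rat. The common biological coefficient of variation between rats was 1.28. All values below are therefore levels and differences that did not pass the adjusted test, and unadjusted p-values rank them only. Levels are expected counts divided by the TMM-scaled library total and given as CPM, and differences are log2 fold changes, hyperglycemic minus normoglycemic, from the sex-adjusted edgeR fit.

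Slc16a1 (ENSMUSG00000032902), which encodes the monocarboxylate transporter MCT1 for lactate, pyruvate and ketone bodies, lay above all normoglycemic rats in most rats with raised glucose. By unadjusted p it ranked 48 of 13436 genes in the comparison of the groups. Its level was 697, 1362, 1322, 1358 and 2930.4 CPM in the hyperglycemic rats in order of glucose. Normoglycemic rats lay between 498 and 962 CPM with a median of 742. Thus 4 of 5 hyperglycemic rats were above all 20 normoglycemic rats, with T370M as the exception. The difference was 1.85-fold, a log2 fold change of 0.89 ± 0.28 (SE), with an edgeR unadjusted p of 0.00292 and an adjusted p of 0.565. As a slope over all 28 rats with sex as covariate, Slc16a1 ranked 1 of 13406 genes by unadjusted p, at 0.35 ± 0.08 (SE) log2 units per 100 mg/dL (edgeR, unadjusted p = 7.91e-05, adjusted p = 0.574). DESeq2 gave it an adjusted p of 0.0295, but at less than 2-fold, so it was not called there either.

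The 3 intermediate rats, which the group comparison did not use, also had more Slc16a1 than every normoglycemic rat. They measured 1028 CPM in T407M, 1739 in T411M and 1388 in T445F. All 3 were above the hyperglycemic T370M (697 CPM), although their glucose was lower. Their mean log2 level exceeded that of the normoglycemic rats by 0.90 (exact permutation test over 1771 splits, two-sided p = 0.000565, the smallest p these splits allow). Adjusted over the 16 well-measured genes chosen by rule for the group comparison and tested the same way, this p was 0.00903. No other gene of the 16 had an exact p under 0.05. Only 7 of the 16, Slc16a1 among them, lay in the same direction in the intermediate as in the hyperglycemic rats. The permutation test was added after the values were seen, and its 20 normoglycemic rats are the same as in the comparison that picked the gene. In all, 7 of the 8 rats above 100 mg/dL lay above the 20 rats below it. The difference was smaller where density entered the fit or was held normal, with a log2 fold change of 0.67 with density as a further covariate and 0.52 among rats of normal density (under 16 per square millimeter), where the edgeR unadjusted p was 0.112. Without T389M, the rat with the highest glucose and a pre-dropout density, it was 0.59 with an edgeR unadjusted p of 0.0401. Among the intermediate rats, density was 17.8 per square millimeter in T407M and 5.90, the lowest of the series, in T411M and T445F. The part of density in the Slc16a1 levels was not tested further.

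**Figure D1:**
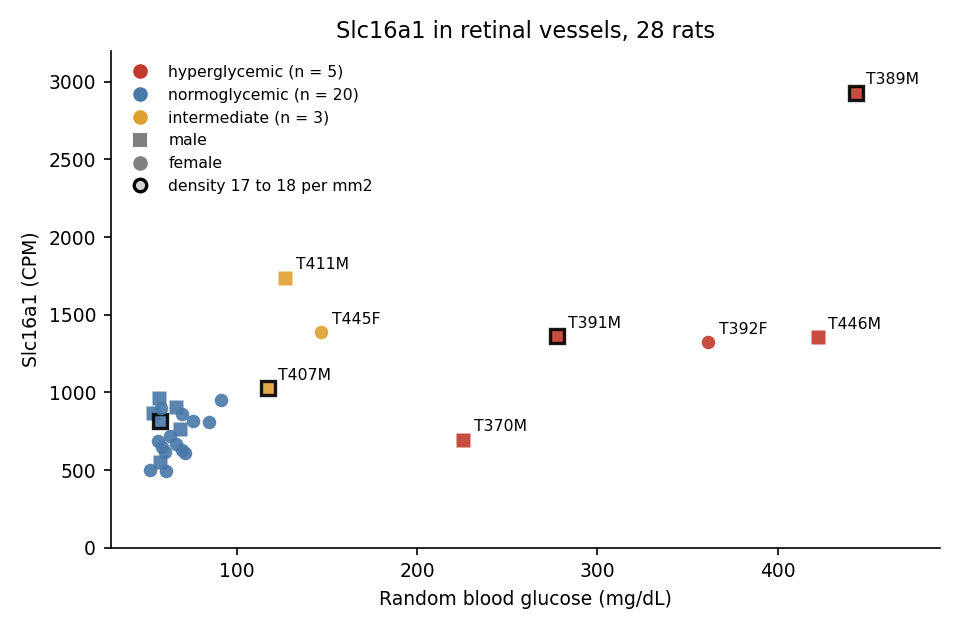
The Slc16a1 level of each rat in CPM (vertical axis) by its blood glucose in mg/dL (horizontal axis), with squares for males, circles for females and a black outline for a density of 17 to 18 per square millimeter. The 20 normoglycemic rats sit between 498 and 962 CPM, and 7 of the 8 rats above 100 mg/dL sit above them, with T370M at 697 as the exception.

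Other genes of lactate and glucose transport did not share this pattern. Slc2a1, the glucose transporter GLUT1 of the blood-retina barrier, measured 1126, 1581, 2565, 2046 and 2619 CPM in the hyperglycemic rats against 708 to 3145 (median 1765) in the normoglycemic rats, a log2 fold change of 0.07 ± 0.33. Slc16a3, the lactate exporter MCT4, had a log2 fold change of -0.46 ± 0.55. Bsg, which encodes basigin, the chaperone that brings MCT1 to the cell surface, was looked up after the values of Slc16a1 were seen. It measured 2056, 2948, 3946, 7209 and 8353 CPM against 795 to 5235 (median 2353). T446M and T389M, with the highest glucose, were above all normoglycemic rats, while the log2 fold change of 0.55 ± 0.38 had an edgeR unadjusted p of 0.158.

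Genes that glucose is known to induce lay above the normoglycemic median in most hyperglycemic rats, with much overlap. Txnip, the inhibitor of thioredoxin and a direct glucose target of MondoA and ChREBP, measured 68.9, 92.6, 230.5, 160.3 and 169.9 CPM. Normoglycemic rats ranged from 19.5 to 315 with a median of 79.9, and the log2 fold change was 0.55 ± 0.50 (edgeR, unadjusted p = 0.274). Klf10, another gene of that list, was above the normoglycemic median of 30.8 CPM in 5 of 5 rats, at 37.9 to 88.1 CPM, with a log2 fold change of 0.88 ± 0.70, and T392F and T446M were above the highest normoglycemic rat at 82.2 CPM. Arrdc4, the relative of Txnip, was near the detection limit, with at most 5.98 CPM in a hyperglycemic rat. Of the 8 tested genes of the list, 6 had a log2 fold change above 0, with a median of 0.72 against 0.04 over all tested genes, of which 47.6% lay below 0. With depth and detected genes as covariates this list had 4 genes above and 4 below 0, a median of 0.09 and 1 member lower at an unadjusted p under 0.05.

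Glycolysis stood close to the background. Of its 22 tested genes, 15 lay above 0 with a median of 0.07, and only Slc16a1, which the list includes, had an unadjusted p under 0.05. Hexokinase 1 (Hk1) had a log2 fold change of 0.03 ± 0.31, pyruvate kinase (Pkm) of 0.02 ± 0.28 and lactate dehydrogenase A (Ldha) of -0.01 ± 0.28. Along the side routes of glucose, 13 of 18 genes of the polyol, pentose phosphate and hexosamine pathways lay above 0, with a median of 0.28. Aldose reductase (Akr1b3) was at 0.34 ± 0.92 and sorbitol dehydrogenase (Sord) at 0.12 ± 1.39. Gfpt1, the entry enzyme of the hexosamine pathway, measured 5.34, 20.02, 31.1, 28.2 and 14.6 CPM, all above the normoglycemic median of 1.42 but all below the highest normoglycemic rat at 37.1. Pgd, of the pentose phosphate pathway, had a log2 fold change of 1.54 ± 0.71. Both had low counts in the normoglycemic males, at a median of 0 and 10.8 CPM. Genes of diacylglycerol and protein kinase C lay above 0 in 11 of 14, with a median of 0.42, and their members with an unadjusted p under 0.05, Prkcz and Dgki, were at or near 0 in all 6 normoglycemic males. Prkcz, an atypical protein kinase C, was also among the genes called by DESeq2, at a log2 fold change of 6.90 (DESeq2, adjusted p = 2.68e-05), and measured 3.97 to 31.2 CPM against 0 to 41.1 CPM in the normoglycemic rats.

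**Figure D2:**
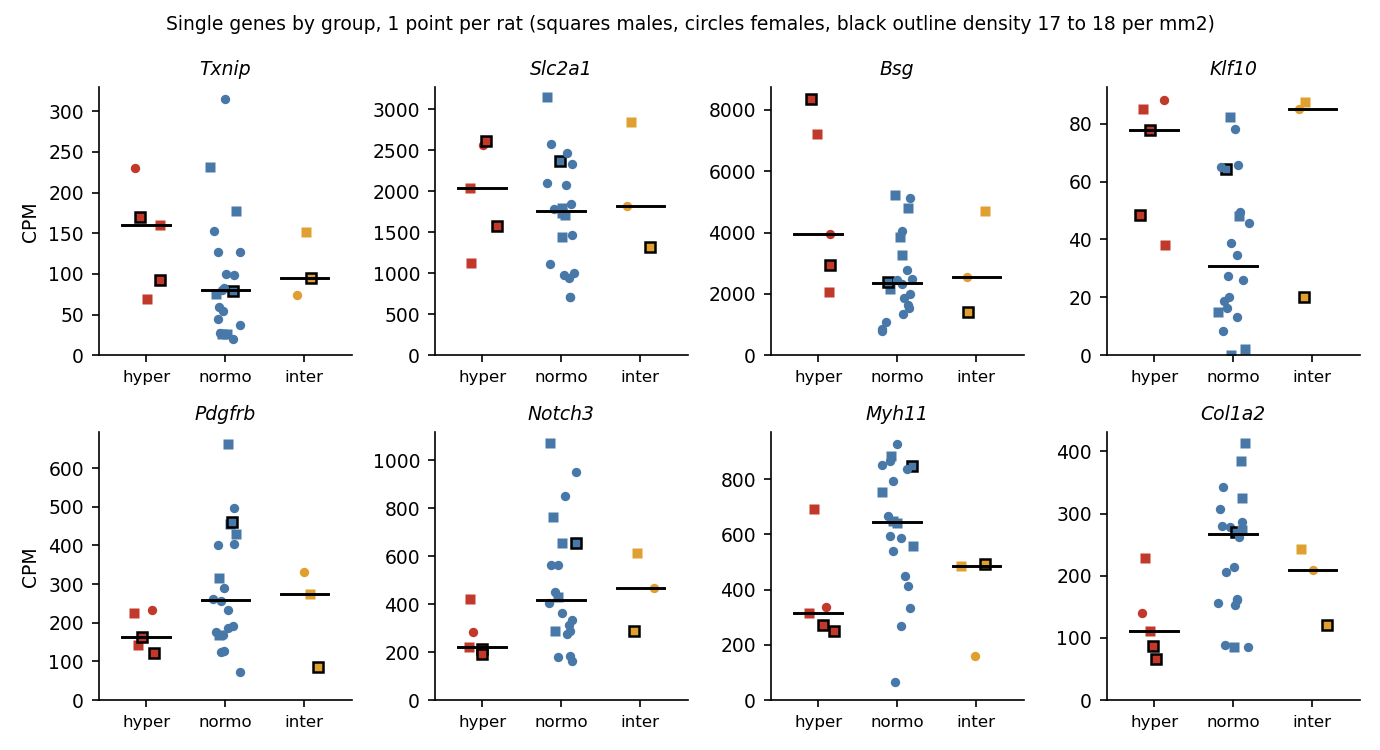
CPM of 8 genes in hyperglycemic (hyper), normoglycemic (normo) and intermediate (inter) rats, 1 point per rat with the group's median as a bar, squares for males and a black outline for densities of 17 to 18 per square millimeter. In the upper row Slc2a1 overlaps fully between groups, and in the lower row (Pdgfrb, Notch3, Myh11 and Col1a2) at least 4 of 5 hyperglycemic rats lie below the normoglycemic median.

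Pericyte transcripts lay lower in the hyperglycemic rats, as a group of markers rather than as single calls. All 11 tested pericyte markers of 12 listed had a log2 fold change below 0, with a median of -0.67. Pdgfrb (ENSMUSG00000024620), the receptor through which endothelial cells recruit and hold pericytes, measured 141, 123, 232, 226 and 162 CPM. Its normoglycemic median was 259 CPM with a range of 73.6 to 663, so the 5 rats lay in the lower part of that range, and 12 of 20 normoglycemic rats were above all of them. The log2 fold change was -0.97 ± 0.40 (edgeR, unadjusted p = 0.0197, adjusted p = 0.565). Notch3 (ENSMUSG00000038146), the Notch receptor of mural cells, measured 223, 213, 285, 422 and 194 CPM against a normoglycemic median of 418.6 (range 163 to 1071), a log2 fold change of -1.12 ± 0.41 (edgeR, unadjusted p = 0.00976, adjusted p = 0.565). Rgs5, the most used pericyte marker, measured 3102, 1736, 6118, 4212 and 1465 CPM against 1373 to 9011 (median 4455), a log2 fold change of -0.66 ± 0.40. Abcc9 and Kcnj8, the subunits of the pericyte potassium channel, were at -0.65 ± 0.41 and -0.47 ± 0.42. The list kept 9 to 11 of 11 below 0 under each of the 19 alternative group fits. Among rats of normal density its median was -0.32, and without T392F, the only hyperglycemic female, it was -1.26.

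Normoglycemic males had a higher median of pericyte transcript than normoglycemic females, and the contrast was larger among males. The summed level of the 11 markers was 4137, 2607, 6154 and 2419 CPM in the hyperglycemic males T370M, T391M, T446M and T389M. Normoglycemic males ranged from 5110 to 10593 with a median of 9831, and normoglycemic females from 2050 to 11522 with a median of 5085. The hyperglycemic female T392F, at 7991 CPM, thus lay above the female median. The intermediate rats T407M, T411M and T445F measured 7931, 9605 and 7189 CPM, above the median of all normoglycemic rats at 6577. Of these, the males T407M and T411M lay below the normoglycemic male median. Rgs5 held most of the summed level. Without Rgs5 the sum was 1035, 871, 1943 and 954 CPM in the 4 hyperglycemic males, against 1658 to 3709 CPM in the normoglycemic males. For Pdgfrb, Rgs5, Abcc9, Notch3, Vtn and Des, 6 of the 11 markers, at least 3 of 4 hyperglycemic males were below all 6 normoglycemic males, which held for 140 (1.04%) of all tested genes. The reverse, at least 3 of 4 above all 6, held for 998 (7.43%) of all tested genes and for 0 of the 11 markers. This way of counting was chosen after the values were seen. T446M was the male within the range each time. Some neural markers moved the other way in the same males. At least 3 of 4 were above all 6 normoglycemic males for 5 of 18 amacrine, horizontal and ganglion and 4 of 10 bipolar markers. The same held for 1 of 13 rod and 1 of 10 cone markers, against the 7.43% of all tested genes. The summed amacrine, horizontal and ganglion level was 728, 518, 834 and 1148 CPM in the 4 hyperglycemic males. All 4 were above the highest normoglycemic male at 486 CPM. Normoglycemic females, however, had a median of 953 CPM and reached 1513 CPM. The 4 males thus lay within the normoglycemic range, and only T389M was above the female median. The part of this neural level in the pericyte contrast was not tested. In the fit of males only, the log2 fold changes were -1.40 for Pdgfrb, -1.30 for Notch3 and -1.25 for Rgs5.

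Endothelial transcripts gave a median near 0. Of 16 tested endothelial markers 9 lay below 0, with a median of -0.05, and the sign of this median changed in 9 of the 19 alternatives. Among males 13 of 16 lay below 0, with a median of -0.39 against -1.25 for the pericyte markers, and the difference between the lists was not tested. Pecam1 was at -0.04 ± 0.35, Tek at -0.14 ± 0.33 and Cdh5 at -0.26 ± 0.39. Their summed level was 4785 to 9015 CPM in the hyperglycemic and 3262 to 11921 CPM in the normoglycemic rats. Relative to this sum, pericyte transcript amounted to 86.5%, 36.5%, 105%, 93.3% and 26.8% in the 5 rats. It amounted to 35.1% to 152% (median 99.9%) in the normoglycemic and 91.1% to 117% in the intermediate rats. Without Rgs5 it was 21.6%, 12.2%, 24.7%, 29.4% and 10.6% in the 5 rats, against 11.6% to 47.7% in the normoglycemic rats. The low values among the hyperglycemic rats were those of T391M and T389M, which are also pre-dropout. A ratio as low, 35.1%, was that of the normoglycemic female T393F, at 60 mg/dL and a density of 6.03 per square millimeter. The other pre-dropout rats, T353M at 57.4 mg/dL and T407M at 117 mg/dL, stood at 105% and 109%, and the hyperglycemic rats of normal density at 86.5% to 105%. Blood glucose and density cannot be told apart in T391M and T389M, and the other 3 hyperglycemic rats lay well within the normoglycemic range. In bulk RNA, fewer pericytes and less RNA per pericyte cannot be told apart either.

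**Figure D3:**
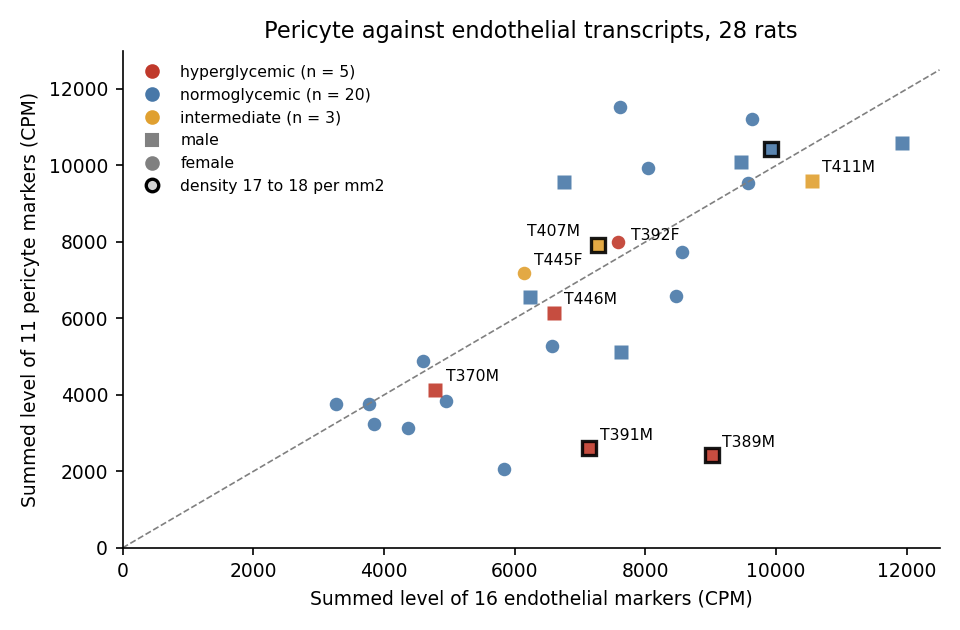
Summed CPM of 11 pericyte markers, most of it from Rgs5, against summed CPM of 16 endothelial markers, 1 point per rat, with the dashed line marking equal sums. T391M and T389M, both hyperglycemic and pre-dropout, lie far below the line at 2607 and 2419 CPM of pericyte transcript, as does the normoglycemic T393F at 2050 CPM (the lowest blue circle), while the pre-dropout rats T353M and T407M lie near it.

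Most genes of vascular smooth muscle and of the vessel matrix also had log2 fold changes below 0. Among smooth muscle markers 9 of 11 lay below 0, with a median of -0.57. Myh11, the myosin heavy chain of smooth muscle, measured 316, 250, 338, 691 and 271 CPM against 66.6 to 925 (median 645), a log2 fold change of -0.93 ± 0.39 (edgeR, unadjusted p = 0.022). Only T446M reached the normoglycemic median. Acta2 was at -0.59 ± 0.51 and Smtn at 0.02 ± 0.35. Cnn1 had no count in any hyperglycemic rat, but its normoglycemic median of 0.13 CPM was under the level of 3 counts, so no fold is given. Myocd, a regulator of smooth muscle genes, was the listed member with an unadjusted p under 0.05 in the other direction, and its counts came from T370M alone, at 4.54 CPM.

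In the basement membrane and extracellular matrix, 21 of 27 tested genes lay below 0, with a median of -0.44, and 4 of them were lower and 1, the low-count Lama1, higher at an unadjusted p under 0.05, against 1.06% and 5.58% of all tested genes. With depth and detected genes as covariates the median was -0.11 and 1 gene was lower, and leaving out T370M or T391M also left 1. Col1a2, a chain of fibrillar collagen I, measured 111, 87.6, 140, 229 and 66.3 CPM against 84.99 to 413 (median 267), with T389M below every normoglycemic rat, a log2 fold change of -1.10 ± 0.40 (edgeR, unadjusted p = 0.00819). The other 3 were Nid1, which links laminin to collagen IV (-1.21 ± 0.54), the laminin chain Lamc1 (-0.88 ± 0.41) and Sparcl1 (-0.72 ± 0.35). Lamc1 was below all 6 normoglycemic males in 4 of 4 hyperglycemic males. Collagen IV, the main collagen of the basement membrane, was at -0.84 ± 0.47 for Col4a1 and -0.56 ± 0.34 for Col4a2, and fibronectin (Fn1) at -0.55 ± 0.37. Col5a2, a chain of collagen V outside the list, had the smallest unadjusted p of the well-measured genes with lower levels. It measured 37.4, 30.5, 29.8, 60.7 and 27.3 CPM against 26.1 to 198 (median 93.0), a log2 fold change of -1.48 ± 0.49 (edgeR, unadjusted p = 0.00425), and 15 of 20 normoglycemic rats were above all 5. Its value stayed at -1.66 to -1.38 when any 1 hyperglycemic rat was left out and at -1.35 among rats of normal density.

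Several genes of the list of TGF-beta and connective tissue growth factors lay lower among males. Over all rats, 15 of its 24 tested genes lay below 0 with a median of -0.18, and 0 had an unadjusted p under 0.05. With depth and detected genes as covariates the median was 0.06 (10 of 24 below 0). In that fit 2 genes were higher and 0 lower at an unadjusted p under 0.05. By the count among males that was chosen after the values were seen, and which held for 1.04% of all tested genes, 8 of the 24 (Tgfb1, Tgfbr1, Tgfbr3, Smad1, Smad3, Smad4, Ctgf and Ltbp1) were below all 6 normoglycemic males in at least 3 of 4 hyperglycemic males. Ctgf measured 209, 380, 281 and 319 CPM in these males against 503 to 1038 in the normoglycemic males, with no overlap, and 709 CPM in T392F. Its log2 fold change was -0.78 ± 0.43 over all rats (edgeR, unadjusted p = 0.0745) and -1.31 among males.

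**Figure D4:**
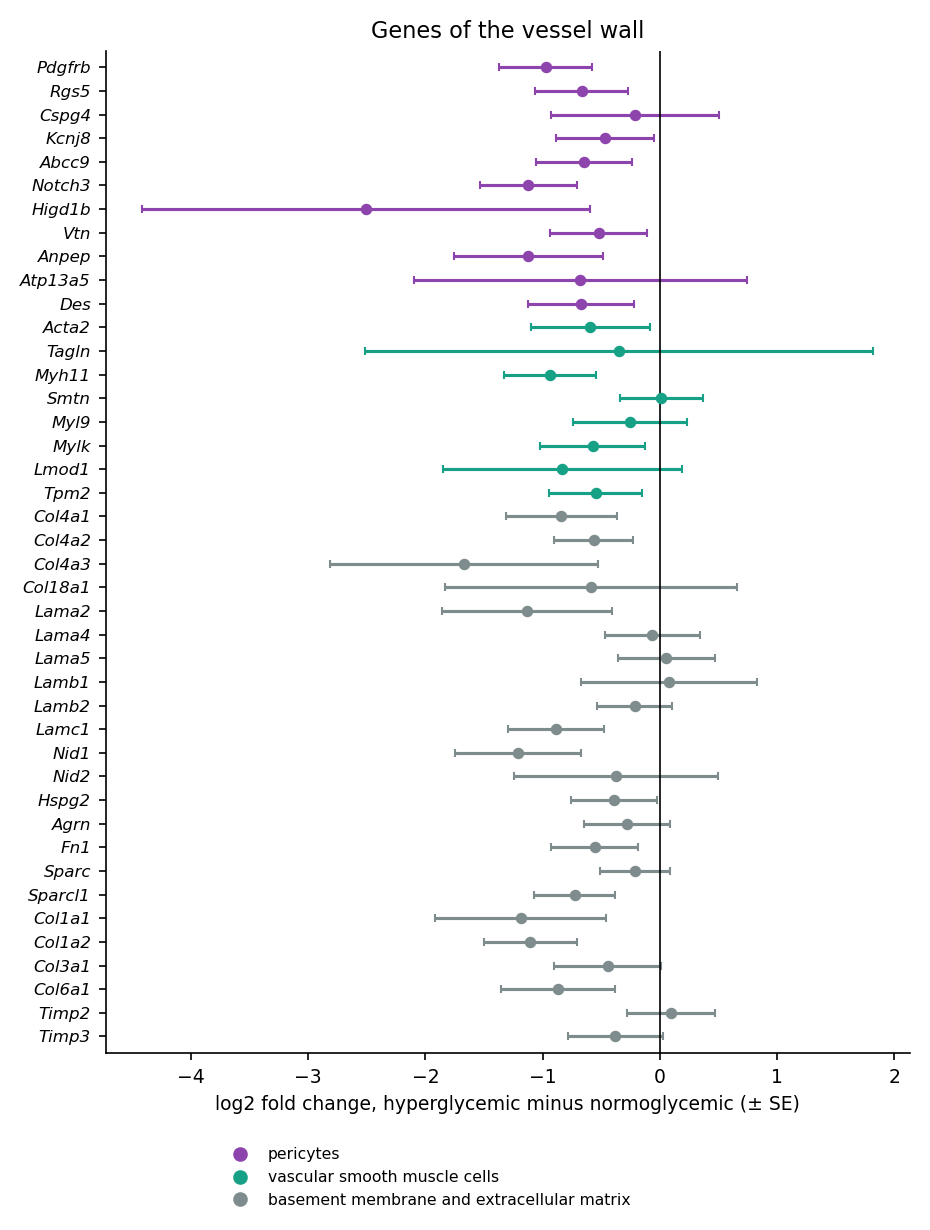
Log2 fold change (hyperglycemic minus normoglycemic) with its SE for 42 tested genes of the pericyte, smooth muscle and matrix lists, leaving out Cnn1, Myocd and Actg2 and the matrix genes with a normoglycemic median under 20 CPM. Most points lie left of 0, among them all 11 pericyte genes, and none of these genes passed the adjusted test.

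Genes of the blood-retina barrier gave a mixed picture. Of 26 tested genes 19 lay below 0, with a median of -0.25, and the only member with an unadjusted p under 0.05 was Slc16a1, which this list also holds. With depth and detected genes as covariates the median was 0.12. Cldn5, the main claudin of the endothelium, measured 1290 CPM in T370M and 2006, 3012, 3216 and 5350 CPM in the next 4 rats, against 810 to 4331 (median 2695) in the normoglycemic rats. Only T389M was above that range, and the log2 fold change was 0.02 ± 0.39. The leucine transporter Slc7a5 was below the normoglycemic median of 304 CPM in 5 of 5 rats, at 133 to 283 CPM (-0.79 ± 0.40). Tight junction genes Ocln and Tjp1 were at -0.08 ± 0.37 and -0.25 ± 0.30, the efflux pump Abcb1a at -0.46 ± 0.34 and the lipid transporter Mfsd2a at -0.43 ± 0.39. Plvap, which marks leaky endothelium, had a count in 1 of 5 hyperglycemic rats, T389M, at 7.86 CPM.

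Vascular growth and hypoxia genes had medians slightly below 0 and no member at an unadjusted p under 0.05, and each of the 3 medians changed sign in 1 to 3 of the 19 alternatives. Below 0 lay 12 of 19 genes of hypoxia and VEGF (median -0.14), 11 of 14 of sprouting and tip cells (-0.22) and 11 of 18 of Norrin and Wnt signaling (-0.18). Flt1, the decoy receptor for VEGF, measured 921, 1164, 828.5, 923 and 1483 CPM against a normoglycemic median of 1301, a log2 fold change of -0.68 ± 0.37, while Kdr, the signaling receptor, was at 0.12 ± 0.32. Vegfa was at 0.36 ± 0.95 and Angpt2, which loosens pericytes from endothelium, at -0.26 ± 0.37.

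Genes of inflammation and of the interferon response stood near the background, while complement and acute phase genes mostly lay below 0. Among genes of leukocyte adhesion and inflammation, 7 of 15 tested lay below 0 (median 0.16), with Icam1 at 0.55 ± 0.85 and Vcam1 at 0.16 ± 0.38. Il6, Tnf, Cxcl1 and Ccl5 had no count in any hyperglycemic rat. Of the 24 list members with values, 15 passed the filter for low counts, and no contrast between the groups is drawn from these zeros. Complement and acute phase genes lay below 0 in 10 of 13 (median -0.59), led by the copper carrier ceruloplasmin (Cp) at 89.7 to 266 CPM against a normoglycemic median of 276 (-0.89 ± 0.38). Interferon and antigen presentation genes lay below 0 in 9 of 23 (median 0.05). Microglial markers passed the filter for 3 of 14 genes and those of other leukocytes for 4 of 13, and the summed microglial level was 50.2 to 117 CPM in the hyperglycemic and 0.67 to 220 CPM in the normoglycemic rats.

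Lipid transport genes mostly lay below 0, while the sign of most stress pathway medians depended on the fit. Genes of lipid and sphingolipid transport lay below 0 in 20 of 24 (median -0.41), with apolipoprotein E (Apoe) at -0.57 ± 0.34, but none had an unadjusted p under 0.05. Below 0 were also 17 of 25 antioxidant genes (median -0.11, Sod2 at -0.83 ± 0.41), 15 of 24 genes of fatty acid use and ketone bodies (-0.21), 10 of 14 glucocorticoid-induced genes (-0.39), 12 of 16 immediate early genes (-0.15) and 15 of 20 apoptosis genes (-0.33). Apart from the fatty acid genes, these medians changed sign in at least 1 alternative. With log2 TPM they reached 0.20 for antioxidant, 0.19 for glucocorticoid-induced and 0.40 for immediate early genes, where all tested genes had a median of 0.31. With depth and detected genes as covariates apoptosis reached 0.04, where all tested genes had a median of 0.05. The antioxidant, glucocorticoid-induced and apoptosis medians thus stayed below that of all genes in these fits. Hmox1 was listed at 0 in 3 of 5 hyperglycemic rats, and its log2 fold change of -0.33 ran from -4.35 to 2.53 over the alternatives. Near 0 in the median were unfolded protein and heat shock genes (13 of 23 below 0), the circadian clock (10 of 18), insulin and IGF signaling (10 of 21), glycation and RAGE (6 of 13), NADPH oxidases and nitric oxide synthases (7 of 13) and coagulation and vascular tone (10 of 20). Nuclear genes of oxidative phosphorylation lay below 0 in 12 of 32 (median 0.11) and cell division genes in 6 of 19 (median 0.40). Mitochondrially encoded genes lay below 0 in 1 of 8 (median 0.90), but this median was -0.56 among rats of normal density.

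Most markers of neural retina had log2 fold changes above 0 in the sex-adjusted fit. Rod markers lay above 0 in 12 of 13 (median 1.65), cone markers in 10 of 10 (median 3.18), bipolar markers in 8 of 10 (median 0.71) and amacrine, horizontal and ganglion markers in 14 of 18 (median 0.83). Without sex in the model these 4 medians were 0.85, 1.30, 0.18 and 0.15, against -0.11 over all tested genes. In the summed bipolar level and the summed amacrine, horizontal and ganglion level, 0 of 5 hyperglycemic rats lay above all normoglycemic rats. The summed photoreceptor level was 7587, 1030, 1276, 528 and 473 CPM in the hyperglycemic rats, so T370M stood alone above the normoglycemic range of 235 to 3329 CPM. Normoglycemic males held only 244 to 1463 CPM with a median of 280, against a female median of 1445. Leaving out T370M, the rod median was 0.15 and the cone median 0.77. The rod genes Gnat1 and Rbp3 were among the 8 well-measured genes with the smallest unadjusted p and a higher level, and T370M had 979 and 1136 CPM of them against at most 296 and 111 in the other 4 rats. Müller glia and astrocyte markers lay below 0 in 8 of 14 (median -0.20), and Glul, the glutamine synthetase of Müller glia, was at 0.74 ± 0.36. Markers of pigment epithelium (2 of 6 below 0), erythrocytes (3 of 6) and lens (0 of 3) rested on few tested genes. The part of neural RNA in the other differences was not tested.

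The remaining well-measured genes chosen by unadjusted p had these values. Gm17615, 4930512M02Rik and Gm21962 had log2 fold changes of 4.57, 4.16 and 3.70, carried by T391M and T389M at 9672 and 2118 CPM of Gm17615, while a normoglycemic rat reached 25238 CPM. Gm17615 and Gm21962 were the 2 genes called among males, and without sex in the model the value of Gm17615 was -0.46. Ckb, brain creatine kinase, was above the normoglycemic median of 322 CPM in 5 of 5 rats, at 419.3 to 1085 CPM (1.13 ± 0.42). Pabpn1, which binds poly(A) tails, was at 2.21 ± 0.85. On the lower side, Rock2, a kinase that acts on the contraction of mural cells, measured 125, 122, 62.3, 61.4 and 142 CPM against 54.8 to 418 (median 148), a log2 fold change of -1.14 ± 0.38 (edgeR, unadjusted p = 0.00444). It was lower in 5 of 5 rats than the normoglycemic median, with T389M close to it. Over the alternatives its value ran from -1.34, with density as a further covariate, to -0.77 without sex in the model. Myo10, a myosin of filopodia, was at -0.99 ± 0.38, the proteasome subunit Psmd11 at -1.38 ± 0.50, Armcx3 at -1.13 ± 0.43 and Cped1 at -2.23 ± 0.85.

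Counted rat by rat without a model, no gene (0%) separated all 5 hyperglycemic from all 20 normoglycemic rats in either direction. At least 4 of the 5 rats lay above all 20 for 3 genes (0.0223%) and below them for 0 genes (0%). Apart from Slc16a1 these were Foxl2 and Ppp1r35, named for this count after their values were seen. Foxl2, a forkhead transcription factor, measured 30.4, 53.5, 37.8, 40.1 and 84.6 CPM against at most 36.7 CPM (median 15.2) in the normoglycemic rats, a log2 fold change of 1.35 ± 0.80. Ppp1r35 was listed at 0 in T392F and at 4.48 to 19.6 CPM in the others, against at most 3.62 CPM.

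**Figure D5:**
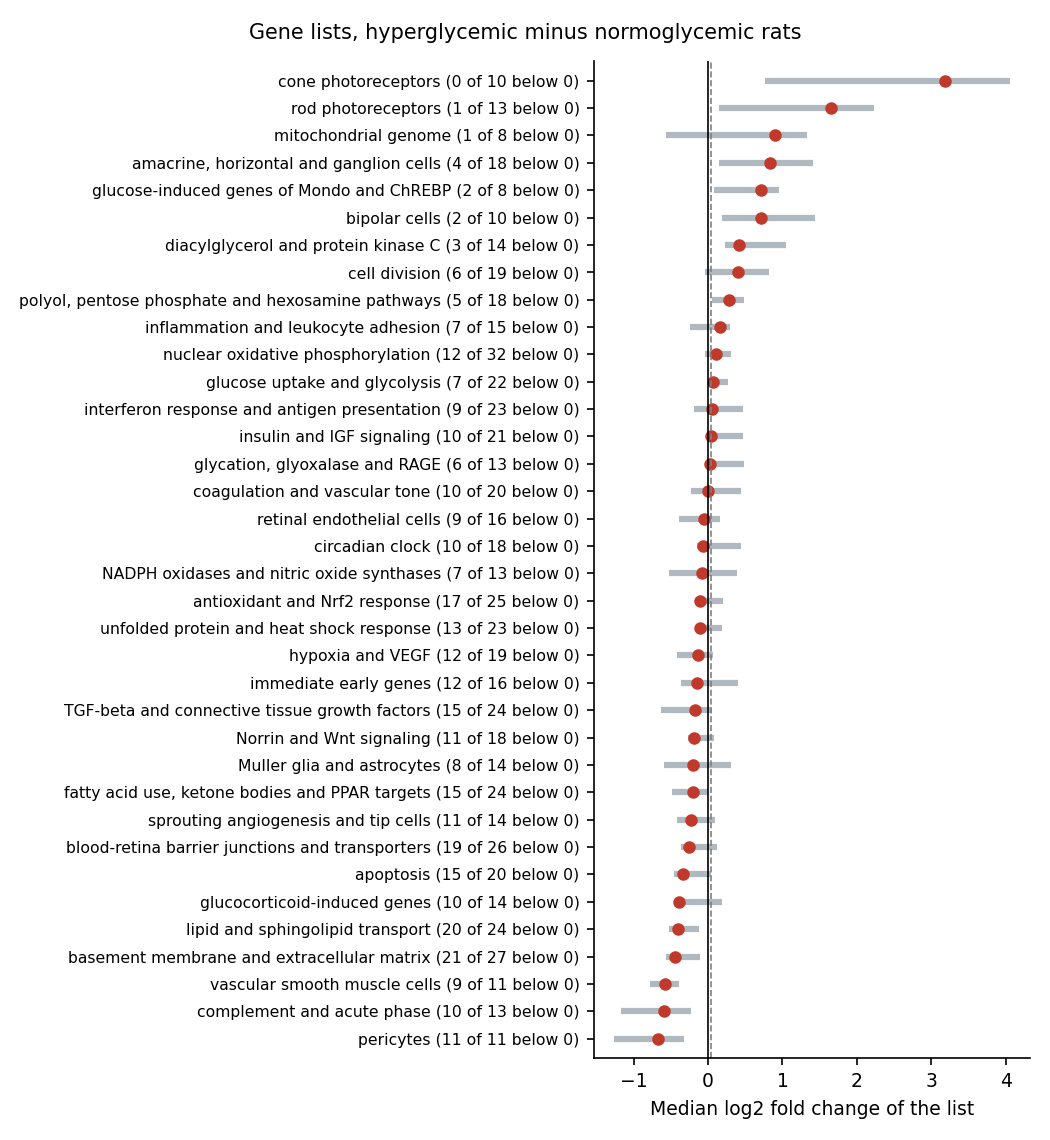
Median log2 fold change (red point) of each gene list with at least 8 tested genes and the lowest and highest median over 19 alternative fits (grey bar). The solid line marks 0 and the dashed line the median of all tested genes, 0.04. The photoreceptor lists stand at the upper end, while pericytes, smooth muscle, complement, matrix and lipid transport lie below 0 with their whole bar.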

How the data were processed

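The authors deposited expected counts and TPM (transcript abundance scaled to a fixed sum per library) of 18970 genes for 28 libraries. Both come from their comparative RNA-seq pipeline (CRSP), which assembles transcripts and maps to annotated mouse transcripts. Genes carry mouse symbols, so close relatives can share reads, and no coordinates or sequences are used here. Aligner versions are not given in the sources used here. The deposited expected counts are unscaled estimates and were rounded to whole numbers. For a gene without a count, an upper limit of 3 counts corresponds to 0.302 to 15.3 CPM, which covers counting error only. The deposited TPM served as an alternative. Genome-mapped values were not analysed here.

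Tests across genes used the quasi-likelihood F test of edgeR 4.0.16 (R 4.3.3) with sex as covariate, TMM scaling, filterByExpr at a minimum count of 10 and Benjamini-Hochberg adjustment. The study's limits for a call were kept, an adjusted p of 0.05 and a fold of 2. The scripts were tested on simulated data. EBSeq, which the study used, was not installed. Each rat is 1 replicate, and sex labels matched 2 Y-linked genes in every rat. No library pair held identical values. Alternatives used DESeq2 1.42.0, limma 3.58.1, other scalings, filters, covariates and subsets of rats. Permutation tests ran in SciPy 1.17.1 on log2(CPM + 1) for genes and on the values themselves for libraries.

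The comparison, the 41 gene lists and the named genes were chosen with earlier results of these data known. Genes named by rule were called genes, the 8 higher and the 8 lower genes with the smallest unadjusted p among those with at least 10 counts in at least 20 of 25 libraries (well-measured genes), for each list its called members or else the 2 with the smallest p, genes known from diabetic vessels, and genes whose groups did not overlap. They come to 116, of which the text prints those a result turns on, with further list members given as examples. A few named genes are not reported here.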

Additional observations from a re-analysis of the deposited data

Results flagged for a closer look

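Of 117 values checked in the 5 hyperglycemic rats, 14 had 1 rat set apart from the other 4, with a gap of more than 0.71 of the whole range. For 5 normally distributed values about 1 in 20 pass this limit. That rate does not hold for low counts with ties, so the 14 cannot be read against it. In T389M, Mlxipl (ChREBP) at 23.1 CPM, Akr1b10 at 5.09 and Plvap at 7.86 were far above the other 4 rats, while Errfi1 at 1.85 and the lens gene Bfsp1 at 0 were far below. In T370M, the photoreceptor gene Rbp3 at 1136 CPM and Hmox1 at 8.28 stood high and Oas1a at 41.9 low. In T392F, the only female, Vegfa at 3.97 CPM, Adamts1 at 5.96 and Igf1 at 0 stood low. C1qa was detected only there, at 0.662 CPM. T391M had 31.4 CPM of the mitochondrial gene mt-Cytb, the highest, and T446M had 103 CPM of the mitochondrial superoxide dismutase Sod2, the lowest. Most of these genes have few counts, and the causes were not tested.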

How the results depend on the processing

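The count of called genes was 0 under the main settings and under each alternative except DESeq2 (95), males only (2), and no filter on low counts (1, Znhit1). It was 0 when any 1 hyperglycemic rat was left out. Genes at an unadjusted p under 0.05 went from 750 higher and 143 lower to 21 and 150 without sex, 195 and 64 with a filter of 1 CPM in 13 libraries, 167 and 83 among males, 276 and 181 for the slope on glucose, 321 and 159 with limma-voom, 469 and 237 with depth and detected genes as covariates, 1249 and 167 without T392F, and 1377 and 381 with no filter on low counts. Genes whose groups did not overlap numbered 0 to 2 when 1 hyperglycemic rat was left out, with Foxl2 and Slc16a1 appearing without T370M and Ppp1r35 without T392F. The median log2 fold change of all genes was 0.04, against 0.13 with RLE scaling, 0.15 with upper-quartile scaling and 0.31 with limma-voom or log2 TPM, and -0.11 without sex. Of 41 lists, 22 had a median below 0. Between 17 and 25 did without sex, with density as covariate, among males, at normal density or with 1 hyperglycemic rat left out. This range leaves out the fits with depth and detected genes as covariates and with log2 TPM, where further medians rose above 0. Examples are the barrier genes at 0.12 in the former and the antioxidant genes at 0.20 in the latter. Among 114 named genes with a test, 0 to 13 changed sign in an alternative. For DESeq2, 117 genes had no adjusted p and were left out of its count. No paired analysis was possible because replicate numbers were given in accession order and pair no rats. With 5 hyperglycemic rats of unequal sex and density, glucose cannot be told apart from density in T391M and T389M.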
